A study of Mus musculus with 4 samples.

Results

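*Ccl3*, *Ccl4*, *Ccl5*, *Ccl6* and *Ccl9* are 5 CC chemokine genes that lie beside each other on mouse chromosome 11. They were taken by symbol from the 27998 genes in the count tables of all 4 libraries, and all 5 were found in each. Male mice aged 8 to 12 weeks had received cardiotoxin, a venom toxin that destroys muscle fibres, in the tibialis anterior at the front of the shin. Cells carrying the leukocyte surface protein CD45 were enriched with magnetic beads after digestion at body temperature, and their RNA was sequenced cell by cell from its 3′ ends on the 10x Genomics platform. The groups were Control dpi2, KO dpi2, Control dpi4 and KO dpi4, where dpi stands for days post-injury. In the study, control mice were Bach1 fl/fl, with both copies of *Bach1* flanked by loxP sites around an exon of the DNA-binding region, and KO mice were Bach1 fl/fl with a Cre recombinase under the *Lyz2* promoter. That promoter is active in monocytes, macrophages and neutrophils, so deletion was not designed for lymphocytes, and the floxed allele was shared by all 4 groups. Each group was 1 library. No spread between animals was measured, no test was possible, and each interval below is a 95% interval for counting error only.

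CC chemokines are small secreted proteins that guide leukocytes into injured tissue through G protein-coupled receptors on the responding cell. *Ccl3* and *Ccl4* encode MIP-1α and MIP-1β, which draw monocytes, lymphocytes and dendritic cells, and that myeloid cells make quickly after an inflammatory stimulus. *Ccl5* encodes RANTES, a chemokine best known from cytotoxic lymphocytes, while *Ccl6* and *Ccl9* encode CCR1 ligands made by rodent myeloid cells.

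The 5 genes fall within 139 kb of chromosome 11 in the GRCm38 annotation. From the lowest coordinate, *Ccl5* (ENSMUSG00000035042) spans 83525778 to 83530518, *Ccl9* (ENSMUSG00000019122) 83572919 to 83578636 and *Ccl6* (ENSMUSG00000018927) 83587882 to 83593087, all on the minus strand. *Ccl3* (ENSMUSG00000000982) spans 83647844 to 83649355 on the minus strand and *Ccl4* (ENSMUSG00000018930) 83662584 to 83664683 on the plus strand. *Ccl6* and *Ccl9* are neighbours and had like patterns over cells and days, so the 250 bases before each annotated start are printed here from RefSeq (GRCm38.p6, minus strand, 5′ to 3′). Promoter entries were matched for 3 of the 5 genes, namely *Ccl3*, *Ccl6* and *Ccl9*. Capitals mark a match to TGANTCA, a pattern related to the binding sites of AP-1 and BACH proteins.
Ccl6, chr11:83593088-83593337: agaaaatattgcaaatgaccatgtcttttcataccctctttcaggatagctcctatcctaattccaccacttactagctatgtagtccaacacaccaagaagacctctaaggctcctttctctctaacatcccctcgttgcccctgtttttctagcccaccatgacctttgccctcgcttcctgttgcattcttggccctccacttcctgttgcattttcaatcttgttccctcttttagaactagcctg
Ccl9, chr11:83578637-83578886: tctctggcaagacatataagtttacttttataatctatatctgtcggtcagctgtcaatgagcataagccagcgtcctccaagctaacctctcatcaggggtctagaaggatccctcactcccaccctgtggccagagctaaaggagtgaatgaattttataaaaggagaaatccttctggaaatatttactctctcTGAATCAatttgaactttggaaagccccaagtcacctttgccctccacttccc

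TGANTCA was searched on both strands and was found in 6.87% of the 27025 RefSeq promoters over the same 250 bases. Among the 3 chemokine promoters it had 1 match, TGAATCA, at positions -53 to -47 of *Ccl9*, counted back from the start with -1 as the last base before it. The NF-kB consensus motif was found in 7.01% of promoters, and its single match among the 3 was GGAAAGCCCC at -35 to -26 of *Ccl9*, which does not overlap the first motif. A match in these letters is a description, and binding was not measured.

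Over the whole 300-base RefSeq entries, which run past the start, the longest like stretch shared by *Ccl6* and *Ccl9* without gaps was 40 bases long with 36 identical bases, from -25 to +15 of *Ccl6* and from +10 to +49 of *Ccl9*. Its first 30 bases are shown next, because this pair had like expression among the 3 genes with promoter entries, and capitals mark the 27 identical bases.
Ccl6, chr11:83593083-83593112: TGTTCCCTCTtTTAGAACTAGCcTGTTGtG
Ccl9, chr11:83578598-83578627: TGTTCCCTCTcTTAGAACTAGCaTGTTGgG
The best such stretch of *Ccl3* was 12 bases with 11 identical against *Ccl6*, and 11 bases with 10 identical against *Ccl9*.

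After filtering, 17011 of 20500 barcodes were kept, namely 5721, 3684, 4173 and 3433 in Control dpi2, KO dpi2, Control dpi4 and KO dpi4, with median depths from 10716 to 15146 unique molecular identifiers (UMIs, each standing for 1 captured RNA molecule) per cell. In all, 44 barcode sequences occurred in more than 1 library. Cells were grouped by fixed marker genes, with the 5 chemokines left out of the clustering, and a class name such as macrophages stands for macrophage-like cells. A level is given as CPM, the UMIs of a gene scaled to the total UMIs of the class in that library. With 1 library per group, a gene was called higher or lower only by a rule of size, that is, at least 2-fold, with an interval that leaves out 1 and at least 50 UMIs in the pair. *Lyz2* followed the labels, since macrophages had 8142 CPM in Control dpi2 against 12.9 in KO dpi2, and 18310 CPM in Control dpi4 against 24.4 in KO dpi4. KO and control thus also differed in Cre and in *Lyz2* RNA, which cannot be told apart here from the deletion of *Bach1*. *Bach1* itself was 124 and 144 CPM at dpi2 and 214 and 228 CPM at dpi4 in control and KO macrophages, but 3′ counts per gene do not show whether 1 exon was removed. *Hmox1*, a heme oxygenase gene known to be repressed by BACH1, was higher in KO macrophages, at 684 against 10476 CPM at dpi2 and 501 against 7443 CPM at dpi4.

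*Ccl3* had its highest levels in neutrophils and in an unnamed cluster led by *Mirt1*, *Il1f9* and *Irg1*. In neutrophils it reached 10530 CPM in Control dpi2, 11011 in KO dpi2, 9628 in Control dpi4 and 7868 in KO dpi4. The *Mirt1*-led cluster had 20550 CPM in Control dpi2 (86 cells) and 23165 CPM in KO dpi2 (483 cells), and it held too few cells at dpi4 for a level. This cluster had 6 of 7 neutrophil markers in at least 10% of its cells, with a summed level of 7548 and 14613 CPM at dpi2, but it was left unnamed by the fixed rule. Neutrophils were therefore the named class with the most *Ccl3* per RNA in all 4 libraries, although they were shallow, with median depths from 2308 to 3420 UMIs.

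Monocytes and macrophages carried *Ccl3* at levels far below those of neutrophils. In monocytes it was 585 CPM in Control dpi2, 705 in KO dpi2, 570 in Control dpi4 and 442 in KO dpi4. In macrophages it was 296, 473, 451 and 329 CPM in the same order, so that KO was above control at dpi2 and below it at dpi4. Dendritic cells had 246, 209, 235 and 178 CPM. NK cells were the next class in the order of levels. The intervals of dendritic and NK cells overlapped in Control dpi4 (222 to 249 and 156 to 259 CPM) and KO dpi2 (195 to 223 and 58.1 to 197 CPM). An overlap of separate intervals does not show equal levels, and the KO dpi2 value of NK cells rests on 12 UMIs.

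*Ccl4* followed the same order of cell classes as *Ccl3* at its top. Neutrophils had 12784 CPM in Control dpi2, 11605 in KO dpi2, 8963 in Control dpi4 and 5384 in KO dpi4, and the *Mirt1*-led cluster had 22455 and 21166 CPM at dpi2. Monocytes came next, with 1472, 1394, 1263 and 1358 CPM. The dpi4 values rest on 43 and 62 cells, and 1 cell held 34.6% of the UMIs in Control dpi4 and 21.4% in KO dpi4. Without the highest cell of each library the monocyte levels were 1459, 1367, 854 and 1108 CPM. Macrophages had 495, 597, 626 and 613 CPM, and dendritic cells 995, 578, 544 and 666 CPM. NK cells also carried the gene, at 1027, 366, 778 and 308 CPM, with lower values in both KO libraries.

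**Figure D1:**
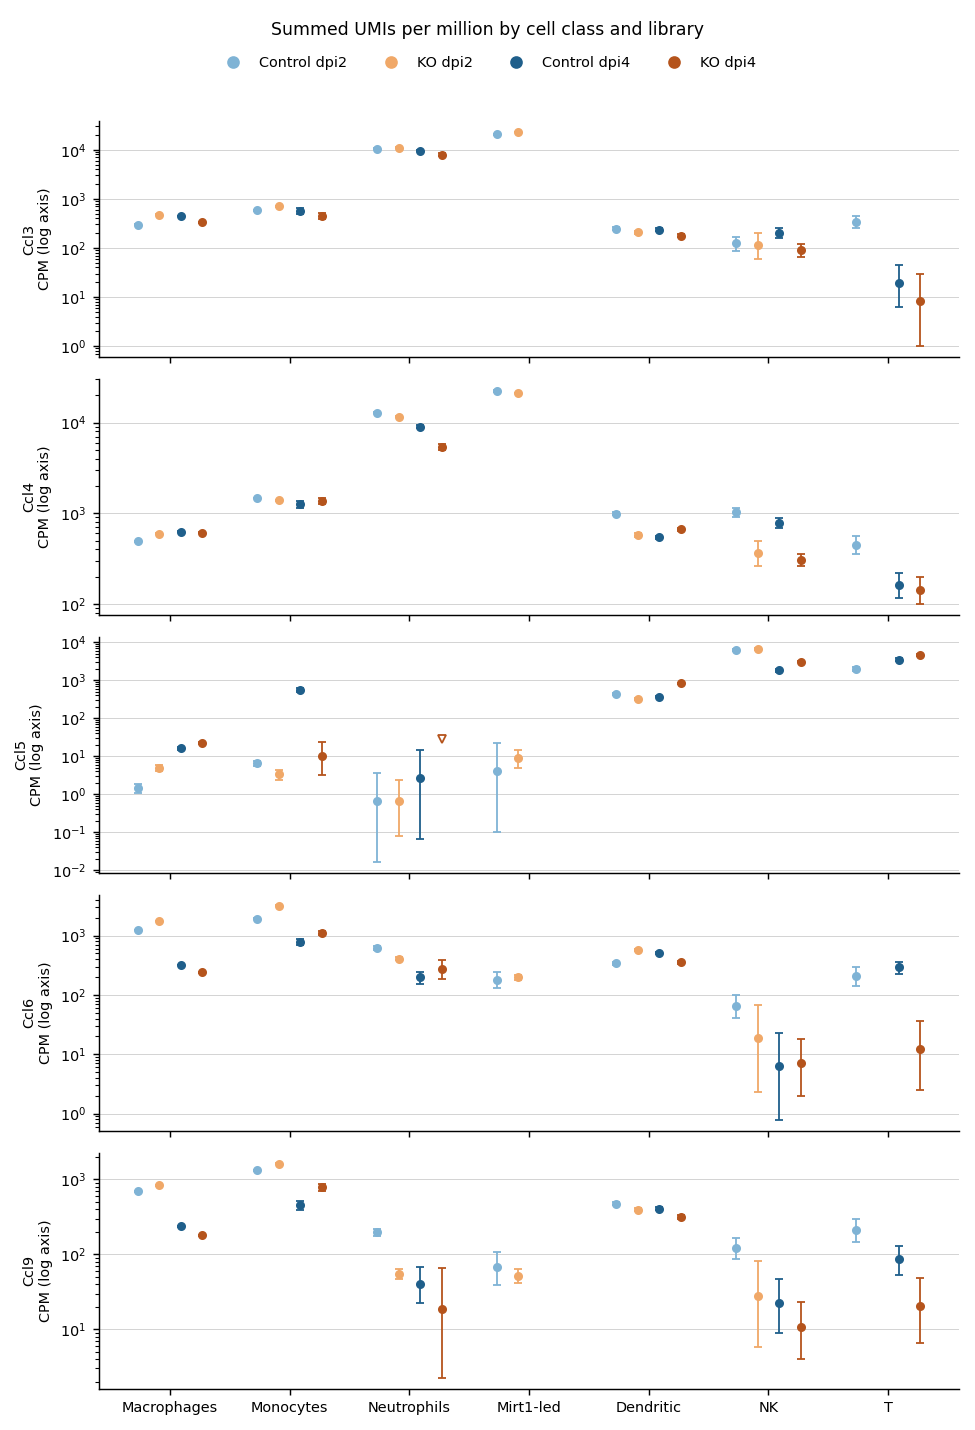
Level of each chemokine (CPM, log axis) by cell class in the 4 libraries, with exact 95% Poisson intervals, for classes with at least 20 cells in a library. *Ccl3* and *Ccl4* were highest in neutrophils and the *Mirt1*-led cluster, *Ccl5* in NK cells and T cells, and *Ccl6* and *Ccl9* in monocytes at dpi2. An open triangle stands for 0 UMIs and is drawn at the level of 3 UMIs.

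At dpi2 the *Ccl3* and *Ccl4* transcripts came from neutrophils, the *Mirt1*-led cluster, monocytes and macrophages. Monocytes held 32.1% of *Ccl3* and 45.3% of *Ccl4* UMIs in Control dpi2 (37.9% of all UMIs), and 9.95% and 17.4% in KO dpi2 (26.5% of all UMIs). Neutrophils and the *Mirt1*-led cluster together were 12.6% of kept cells and 2.50% of UMIs in Control dpi2, and held 43.1% (42.7% to 43.5%) of the *Ccl3* UMIs. In KO dpi2 they were 35.6% of cells and held 75.0% (74.7% to 75.3%) of the *Ccl3* UMIs and 64.6% (64.3% to 64.9%) of the *Ccl4* UMIs, against 28.6% of the *Ccl4* UMIs in the control. At dpi4 macrophages held 73.1% of *Ccl3* and 73.5% of *Ccl4* UMIs in the control and 82.4% and 81.4% in KO, close to their share of all UMIs, 77.6% and 81.9%. Neutrophils and the *Mirt1*-led cluster still held 10.7% of *Ccl3* UMIs in Control dpi4 from 0.527% of all UMIs. A further 10.4% of *Ccl3* UMIs in Control dpi4 came from an unnamed cluster led by *Mylpf* and *Acta1*, in which all 11 macrophage markers were detected beside 5 of 7 muscle markers.

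**Figure D2:**
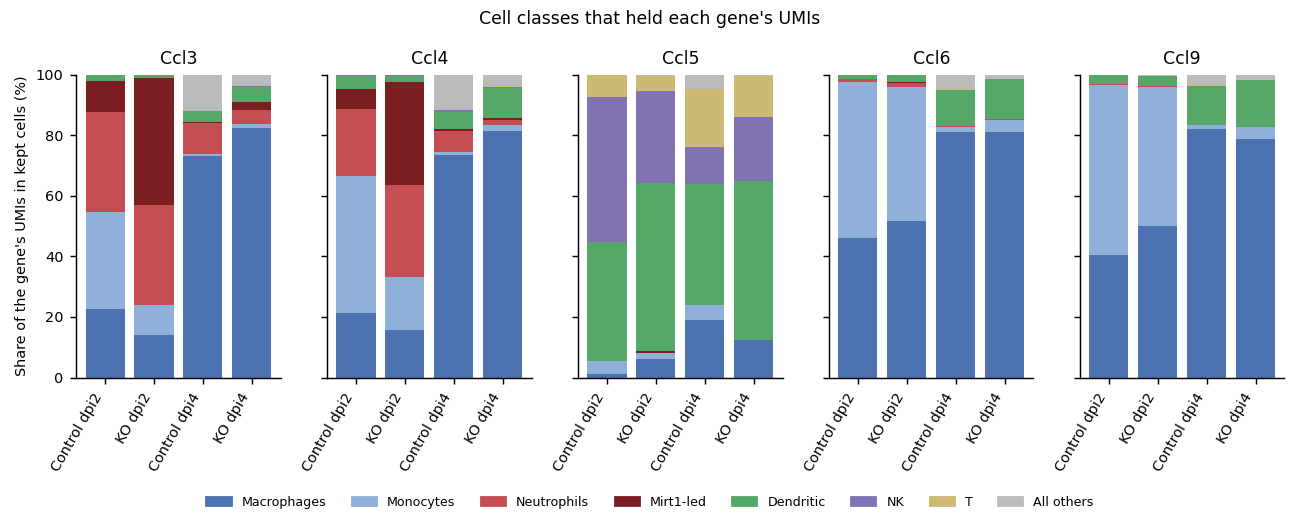
Share of each chemokine's UMIs (percent of those in all kept cells) that came from each cell class, as stacked bars for the 4 libraries. Neutrophils and the *Mirt1*-led cluster held 43.1% of *Ccl3* UMIs in Control dpi2 and 75.0% in KO dpi2, whereas macrophages held 73.1% and 82.4% at dpi4.

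Summed over all kept cells at dpi2, *Ccl3* was 691 CPM in the control and 1874 CPM in KO, a ratio of 2.71 (2.68 to 2.74). When the KO level of each class was weighted by the class makeup of the control, the ratio became 1.23. *Ccl4* had a ratio of 1.72 (1.71 to 1.74) over all cells and 0.978 at the control makeup. Both ratios were thus smaller at the control makeup. Neutrophils were 11.1% of control and 22.4% of KO cells at dpi2, and the *Mirt1*-led cluster went from 86 to 483 cells. At dpi4 the ratio over all cells was 0.684 for *Ccl3*, with 0.749 at the control makeup, and 0.935 for *Ccl4*.

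Within macrophages, *Ccl3* at dpi2 had a KO over control ratio of 1.60 (1.56 to 1.64), and at dpi4 of 0.730 (0.716 to 0.745). Neither passed the size rule. Over the 5 chemokines, 1 was called higher (*Ccl5*) and 0 lower in macrophages at dpi2, where 4.32% of all genes with enough UMIs were called, and 0 were called at dpi4, where 2.33% of genes were. The *Ccl3* ratio at dpi2 was above 1 in both clusters that held most macrophages, at 1.58 in the one led by *Pdpn* and 1.60 in the one led by *Cd163* and *Gja1*. These clusters held 58.3% and 28.5% of macrophages in Control dpi2 and 43.1% and 44.5% in KO dpi2. At dpi4 different clusters held most macrophages in the 2 genotypes, namely 39.4% in one led by *Apoe* and *Sepp1* in the control and 39.9% in one led by *Slc40a1* and *Vcam1* in KO. Of the 10 clusters of any class with enough cells in both genotypes at dpi4, 8 had a *Ccl3* ratio below 1 and 1 above it beyond counting error, over a range from 0.386 to 1.17.

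RNA of neutrophil marker genes was present at low level in macrophages and moved the same way as *Ccl3* between genotypes on both days. The neutrophil marker *S100a8* was 39.6 CPM in Control dpi2 macrophages, 129 in KO dpi2, 26.6 in Control dpi4 and 15.4 in KO dpi4, and 3 of the 7 neutrophil markers were found in at least 10% of macrophages (summed level 102, 261, 95.5 and 73.8 CPM). At the *Ccl3* to *S100a8* ratio of the neutrophils and *Mirt1*-led cells of the same library, that RNA would bring 20.8 CPM of *Ccl3* in Control dpi2 and 77.8 CPM in KO dpi2, or 7.03% and 16.5% of the macrophage level, which leaves 275 and 395 CPM. For *Ccl4* the same sum leaves 470 and 521 CPM. *Ccl3* per *S100a8* UMI was 0.412 in Control dpi2 neutrophils and less in KO dpi2 neutrophils, but 4.08 and 2.77 in the *Mirt1*-led cluster and 7.48 and 3.66 in dpi2 macrophages. At the ratio of the *Mirt1*-led cluster alone, the *S100a8* level of dpi2 macrophages would bring 162 and 358 CPM of *Ccl3*, or 54.5% and 75.7% of their level. In monocytes *S100a8* was 84.7 CPM in Control dpi2 and 199 in KO dpi2, which at the first ratio would bring 7.61% and 17.0% of their *Ccl3*, and at that of the *Mirt1*-led cluster 59.0% and 78.1%. In dendritic cells it was 61.5 and 184 CPM, which would bring 13.2% and 52.9% at the first ratio and 102% and 243% at the other, while their *Ccl3* was lower in KO. That direction turned with each library clustered by itself, a marker score per cell or a minimum of 200 genes. In KO dpi2, 1 dendritic cell held 24.6% of the *Ccl3* UMIs. Whether this *S100a8* RNA came from neutrophils or from the cells themselves was not tested. The part of such RNA in these levels therefore depends on the source assumed and was not tested either.

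When monocytes and macrophages were clustered on their own, *Ccl3* was higher in KO over the sub-clusters at dpi2 and went opposite ways at dpi4. At dpi2 its ratio was above 1 in all 5 sub-clusters with enough UMIs whose interval left out 1, with the lowest, 1.15, in the one led by *Ifitm6* and *Vcan*. In the one led by *Cd163* and *Gja1* it was 1.42, with 352 CPM in control and 499 in KO. In the clustering of all cells, however, the *Plac8*-led monocyte cluster had a ratio of 0.994 (0.946 to 1.04) at dpi2. At dpi4 the sub-cluster led by *H2-Aa*, a class II antigen presentation gene, had 680 CPM in the control (1412 cells) and 448 in KO (379 cells). The one led by *Slc40a1*, which encodes the iron exporter ferroportin, and *Mfge8* had 200 CPM in the control (456 cells) and 355 in KO (1334 cells). *Ccl4* in that last sub-cluster was 223 CPM in the control and 631 in KO, a ratio of 2.83 (2.72 to 2.94), while over all macrophages it was 0.980 (0.965 to 0.996). The cluster led by *Slc40a1* and *Vcam1*, from the clustering of all cells, went the other way, with 885 CPM of *Ccl4* in control (67 cells) and 773 in KO (1030 cells), a ratio of 0.874 (0.822 to 0.930), and 549 and 427 CPM of *Ccl3*. The direction in *Slc40a1*-led cells thus depended on the clustering.

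For *Ccl3* in neutrophils the dpi2 ratio was 1.05 (1.03 to 1.07), and at dpi4 it stood at 0.817 (0.757 to 0.881). *Ccl4* had ratios of 0.908 (0.892 to 0.924) and 0.601 (0.549 to 0.656). None of these 4 passed the size rule. The median log2 ratio of all genes in neutrophils at dpi2 was -0.30, and with TMM scaling, which centres the ratios, that of *Ccl3* moved from 0.06 to 0.43 and that of *Ccl4* turned from -0.14 to 0.23. It also changed sign for *Ccl4* when the *Mirt1*-led cluster was counted as neutrophils. The only chemokine called in neutrophils at dpi2 was *Ccl9*, lower in KO, against 9.24% of all genes, and the call was lost with doublets kept or with a marker score per cell. At dpi4 0 were called against 6.05% of genes, with only 37 KO neutrophils.

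*Ccl5* came from other cells. NK cells had 6216 CPM in Control dpi2, 6762 in KO dpi2, 1836 in Control dpi4 and 3097 in KO dpi4, and T cells had 1968, 1581, 3508 and 4501 CPM, on few cells (22 to 80 NK cells and 14 to 52 T cells a library). A single T cell held 54.1% of the *Ccl5* UMIs of Control dpi2 T cells, and without it their level was 972 CPM. Dendritic cells had 433, 328, 371 and 830 CPM, the highest in KO dpi4. Neutrophils had at most 2 UMIs of *Ccl5* in any library, and 0 in KO dpi4, where 3 UMIs would stand for 27.7 CPM. Of all *Ccl5* UMIs, NK cells held 47.7% in Control dpi2 and dendritic cells held the largest share in the other libraries, at 55.4% in KO dpi2, 40.0% in Control dpi4 and 52.4% in KO dpi4.

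Within dendritic cells nearly all *Ccl5* lay in the small cluster led by *Ccr7* and *Fscn1*, genes known from mature dendritic cells that migrate to lymph nodes. That cluster was 7.64% of dendritic cells in Control dpi2, 10.6% in KO dpi2, 10.6% in Control dpi4 and 13.7% in KO dpi4, and held 86.6%, 90.5%, 86.5% and 92.1% of their *Ccl5* UMIs. Its level was 6148, 2708, 3593 and 7784 CPM, against 61.9, 35.1, 55.1 and 72.3 CPM in the other dendritic cells. KO was therefore below control at dpi2 and above it at dpi4. These levels rest on 24, 25, 42 and 58 cells.

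*Ccl5* was the only chemokine called in dendritic cells at dpi4, with a ratio of 2.24 (2.12 to 2.36) between KO and control, and 1.34% of all genes were called. With doublets kept or with a marker score per cell the log2 ratio was 0.97 and 0.87, in place of 1.16, and fell short of the size rule. One cell held 24.1% of its UMIs in KO dpi4 and 11.1% in Control dpi4, and without the highest cell of each library the levels were 631 and 331 CPM. At dpi2 the ratio was 0.756 (0.703 to 0.813) and 0 of the 5 chemokines were called, against 2.82% of genes. With each library clustered by itself 4 were called, and the log2 ratio of *Ccl5* moved from -0.40 to -3.30. T cell markers were nearly absent from dendritic cells, with 0 of 6 found in at least 10% of cells and a summed level between 1.74 and 19.7 CPM, highest in KO dpi4. For NK cell markers it was 0 of 8 and 7.59 to 10.2 CPM.

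Macrophages had low levels of *Ccl5*, at 1.45 CPM (1.09 to 1.89) in Control dpi2, 4.95 (4.18 to 5.82) in KO dpi2, 16.1 (15.1 to 17.2) in Control dpi4 and 22.1 (20.8 to 23.5) in KO dpi4. The dpi4 libraries were above the dpi2 libraries in both genotypes, with a dpi4 over dpi2 ratio of 11.1 (8.45 to 14.9) in control and 4.46 (3.75 to 5.34) in KO. Both passed the size rule, but the log2 ratio in KO, 2.16, ranged from 1.40 at a minimum of 200 genes to 4.23 with a marker score per cell. The KO over control ratio at dpi2, 3.41 (2.49 to 4.74), also did, but 45 of the 147 KO UMIs (30.6%) lay in 1 cell, the level without the highest cell of each library was 3.44 CPM in KO and 1.24 in control, and the call was lost with doublets kept. NK markers in macrophages summed to 0.949, 4.85, 2.36 and 1.66 CPM and moved with *Ccl5* at dpi2, and T cell markers to 11.1, 5.05, 40.6 and 23.5 CPM. Their part in these values was not tested. Macrophages at dpi4 held 19.1% of all *Ccl5* UMIs in control, as T cells did and above the 12.1% of NK cells, and 12.4% in KO. These shares were far below the macrophage share of the UMIs of all genes at dpi4, 77.6% in control and 81.9% in KO.

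In monocytes at dpi2 *Ccl5* was 6.50 CPM in control and 3.33 in KO, where 1 cell held 36.2% of the 47 UMIs, and the log2 ratio turned from -0.96 to 0.30 at resolution 0.5 and to 0.34 at a minimum of 200 genes. In all, 0 of the 5 chemokines were called, against 4.33% of genes. At dpi4 *Ccl5* was 563 CPM in control and 9.90 in KO, which made it the 1 chemokine called lower, against 3.25% of genes. This call rests on a single cell of 43, which held 199 of the 229 control UMIs (86.9%), and without it the control level was 76.2 CPM.

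*Ccl6* and *Ccl9* transcripts lay mostly in monocytes and macrophages, and in both classes their levels were highest at dpi2. In monocytes *Ccl6* was 1935 CPM in Control dpi2, 3190 in KO dpi2, 784 in Control dpi4 and 1119 in KO dpi4, and in macrophages it was 1236, 1779, 319 and 242 CPM. For *Ccl9* the monocyte levels were 1332, 1616, 452 and 788 CPM, and the macrophage levels 691, 835, 238 and 179 CPM. At dpi2 KO exceeded control for both genes in both classes, and at dpi4 KO was higher in monocytes (43 and 62 cells) and lower in macrophages. At dpi2 monocytes and macrophages together held nearly all of both transcripts, with 51.6% and 45.9% of *Ccl6* UMIs in Control dpi2 and 44.2% and 51.8% in KO dpi2. The study used both genes as markers of one of its monocyte states, on these same libraries, so that their place in monocytes is not independent evidence.

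From dpi2 to dpi4 both genes fell in macrophages beyond the size rule. The dpi4 over dpi2 ratio of *Ccl6* was 0.259 (0.254 to 0.263) in control and 0.136 (0.133 to 0.139) in KO, and that of *Ccl9* was 0.344 (0.337 to 0.351) and 0.215 (0.209 to 0.220). Together with *Ccl5*, this made 1 chemokine higher and 2 lower in each genotype, where 15.6% of all genes were called in control and 13.7% in KO. *Ccl3* and *Ccl4* were not called, with *Ccl3* ratios of 1.52 (1.49 to 1.56) in control and 0.697 (0.681 to 0.713) in KO and *Ccl4* ratios of 1.26 and 1.03. Macrophages of the 2 days were held by different clusters, led by *Pdpn* or *Cd163* at dpi2 and by *Apoe* or *Slc40a1* at dpi4.

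**Figure D3:**
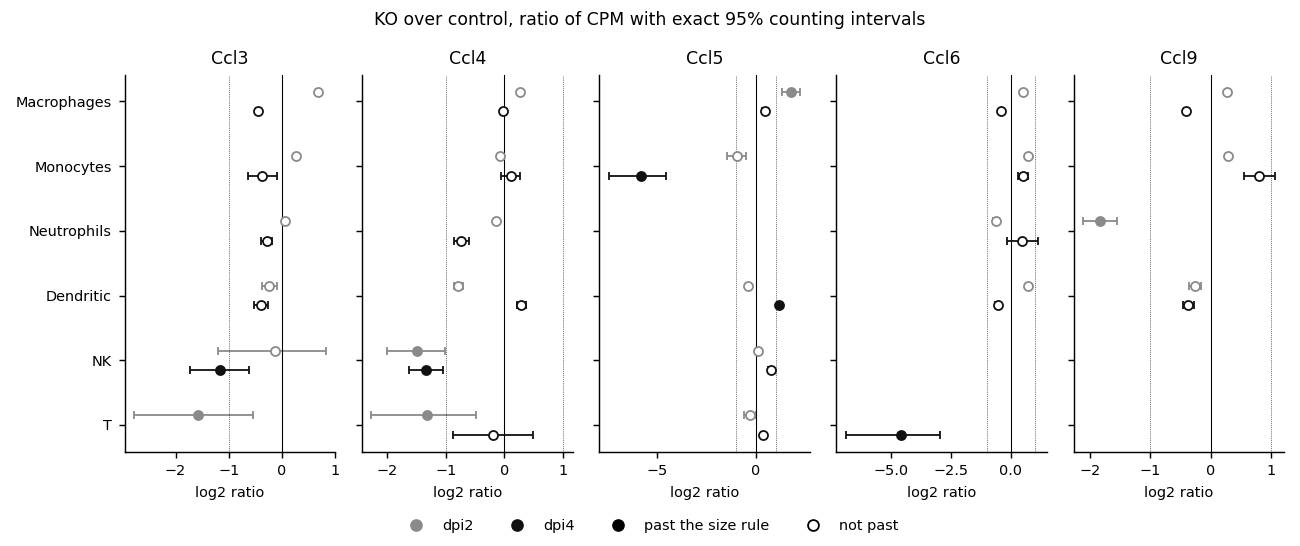
KO over control ratio (log2) of each chemokine by cell class at dpi2 (grey) and dpi4 (black), with exact conditional 95% intervals, for pairs with at least 50 UMIs. Dotted lines mark 2-fold, filled points passed the size rule, and the axis range differs between panels. *Ccl3* in macrophages lay above 0 at dpi2 and below it at dpi4, and neither point passed the rule.

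KO over control, *Ccl6* had a ratio of 1.65 (1.63 to 1.67) in monocytes and 1.44 (1.42 to 1.46) in macrophages at dpi2, and *Ccl9* of 1.21 in each. These ratios differed between clusters of the same class. Control monocytes lay mostly (71.0%) in a cluster led by *Plac8* and *Ly6c2*, and KO monocytes mostly (61.4%) in one led by *Vcan* and *Dmkn*. Within these clusters the *Ccl6* ratio was 1.24 (1.21 to 1.26) and 1.29 (1.24 to 1.35), and in the third monocyte cluster, led by *F10*, it was 0.947 (0.901 to 0.995). In macrophages it was 1.85 (1.81 to 1.90) in the *Pdpn*-led cluster and 0.998 (0.983 to 1.01) in the *Cd163*-led one, which had the higher level, 2931 CPM in control and 2926 in KO. For *Ccl9* the ratios were 0.998, 1.10 and 0.940 in the *Plac8*-led, *Vcan*-led and *F10*-led monocyte clusters, 1.34 in the *Pdpn*-led and 0.888 in the *Cd163*-led macrophage cluster.

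The sub-clusters of monocytes and macrophages gave other ratios at dpi2. In the one led by *Ifitm6* and *Vcan*, *Ccl6* was 1472 CPM in control and 4024 in KO, a ratio of 2.73 (2.67 to 2.80), and *Ccl9* was 1039 and 1942 CPM, a ratio of 1.87 (1.82 to 1.92). That sub-cluster held 754 control and 539 KO cells, whereas the *Vcan*-led cluster held 73 and 607, with 2901 and 3756 CPM of *Ccl6*, so the size of the ratio depended on the clustering. In the sub-cluster led by *Cd163* and *Gja1*, *Ccl6* was 3354 and 3794 CPM, and *Ccl9* was 1563 CPM in both. The *Ly6c2*-led sub-cluster had 2129 and 2292 CPM of *Ccl6* and 1471 and 1281 CPM of *Ccl9*. At dpi4 *Ccl9* ratios went opposite ways, with 1.54 (1.45 to 1.63) in the *H2-Aa*-led sub-cluster and 0.517 (0.491 to 0.544) in the one led by *Slc40a1* and *Mfge8*, while in the cluster led by *Slc40a1* and *Vcam1* the ratio was 0.902 (0.731 to 1.12).

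**Figure D4:**
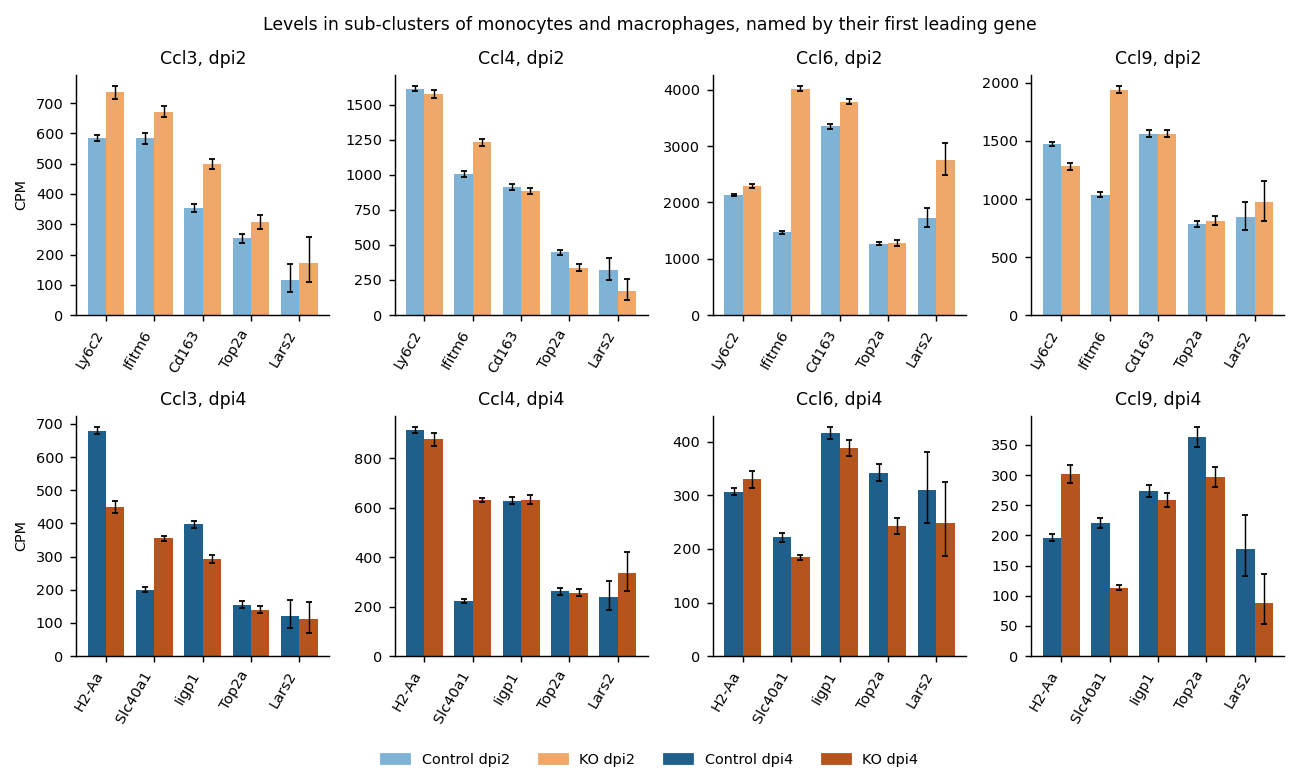
Level of *Ccl3*, *Ccl4*, *Ccl6* and *Ccl9* (CPM) in the sub-clusters of monocytes and macrophages, named by their leading genes, as bars from 0 with exact 95% Poisson intervals, with 1 sub-cluster not shown. At dpi2 the *Ifitm6*-led sub-cluster had 1472 CPM of *Ccl6* in control and 4024 in KO, whereas the *Vcan*-led cluster of all cells (not drawn) had 2901 and 3756, and at dpi4 the one led by *Slc40a1* and *Mfge8* had 223 CPM of *Ccl4* in control and 631 in KO, whereas the cluster led by *Slc40a1* and *Vcam1* (not drawn) had 885 and 773 CPM.

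Dendritic cells carried both genes as well, at dpi4 at levels above those of macrophages in both genotypes. *Ccl6* was 344 CPM in Control dpi2, 567 in KO dpi2, 517 in Control dpi4 and 352 in KO dpi4, so KO was above control at dpi2 and below it at dpi4, with ratios of 1.65 (1.54 to 1.77) and 0.682 (0.642 to 0.724). With each library clustered by itself these ratios moved 1.88-fold at dpi2 and 1.55-fold at dpi4, and with a marker score 1.64-fold at dpi2, all with the direction kept. *Ccl9* was 475, 394, 408 and 315 CPM, lower in KO on both days, but at dpi2 the log2 ratio turned from -0.27 to 1.78 when each library was clustered by itself. Macrophage markers in dendritic cells summed to 708, 1029, 6094 and 3451 CPM, with 10 of 11 found in at least 10% of cells, and went the same way as *Ccl6* between genotypes on both days. Their part in it was not tested.

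In neutrophils *Ccl6* was 621, 406, 198 and 277 CPM and *Ccl9* 197, 55.3, 40.6 and 18.5 CPM in the 4 libraries. The *Ccl9* ratio at dpi2 was 0.281 (0.231 to 0.341) and is the call given above. Monocyte markers summed to 2314 CPM in Control dpi2 and 1503 in KO dpi2 neutrophils, with 5 of 8 found in at least 10% of cells, and moved the same way as *Ccl9*.

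Lymphocytes had few UMIs of the myeloid chemokines. In NK cells, 1 chemokine was called lower in KO at dpi2, against 5.62% of genes, and 2 at dpi4, against 3.59%. These were *Ccl4* on both days, with ratios of 0.356 (0.249 to 0.497) and 0.395 (0.323 to 0.483), and *Ccl3* at dpi4, with 203 CPM in control and 89.9 in KO. With doublets kept, *Ccl4* at dpi2 turned to a log2 ratio of 0.75, and at dpi4 its log2 ratio moved from -1.34 to -0.02. Both dpi4 calls were lost with each library clustered by itself and with the mean over cells. At dpi4, 4 of 10 immediate early genes (*Fosb*, *Jun*, *Zfp36* and *Fos*) were also lower in KO NK cells, and their part in these values was not tested. A single NK cell held 55.6% of the *Ccl3* UMIs of Control dpi4. Macrophage markers summed to 315 and 253 CPM in NK cells at dpi2 and 1382 and 1056 CPM at dpi4.

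In T cells, 2 chemokines were called lower in KO at dpi2 (*Ccl3* and *Ccl4*, against 10.6% of genes) and 1 at dpi4 (*Ccl6*, against 5.16%). With a marker score per cell all 3 turned, to log2 ratios of 2.04, 1.55 and 0.00515. *Ccl3* was 345 CPM in Control dpi2, where 1 cell held 65.5% of the UMIs, and *Ccl6* 292 CPM in Control dpi4, where 1 cell held 54.7%. Of the *Ccl4* UMIs of Control dpi2, 1 cell held 58.3%. Without the highest cell, the Control dpi2 levels were 124 CPM for *Ccl3* and 196 CPM for *Ccl4*. Monocyte markers in T cells summed to 2520 and 604 CPM at dpi2 and macrophage markers to 3313 and 1296 CPM at dpi4, so both lists were lower in KO together with these chemokines. The KO dpi2 library had 14 T cells.

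To compare how many cells carried each gene, cells were thinned to 2000 UMIs. *Ccl3* was found in 85.0% of neutrophils in Control dpi2, 90.0% in KO dpi2, 82.4% in Control dpi4 and 84.8% in KO dpi4, so most neutrophils carried it. In macrophages the share was 33.6%, 43.5%, 41.3% and 34.9%, with the same order of libraries as the level. T cells, taken as the class for background, had 20.7%, 14.3%, 5.26% and 4.08%, on 29, 14, 38 and 49 cells. Median depths before thinning were 18144, 26351, 16223 and 15304 UMIs in macrophages and 4200, 5728, 4393 and 4322 UMIs in T cells, and the shares without thinning were 74.7%, 87.1%, 78.2% and 67.4% in macrophages.

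*Ccl6* was found in 80.4% and 85.9% of monocytes at dpi2, and in macrophages in 58.8%, 69.7%, 38.6% and 29.2% of the 4 libraries, against 2.04% to 7.89% of T cells. *Ccl9* was found in 54.2%, 59.7%, 31.3% and 23.4% of macrophages, against 13.8%, 0%, 5.26% and 2.04% of T cells, where 0 of 14 cells in KO dpi2 allows a share of cells with a UMI of up to 21.4% by the limit of 3 counts. *Ccl5* was found in 94.4% of NK cells in Control dpi2, 90.9% in KO dpi2, 75.7% in Control dpi4 and 83.5% in KO dpi4, but in 47.4% and 55.1% of T cells at dpi4. In neutrophils, its background class, it was found in 0 of 467 cells of Control dpi2, which allows a share of cells with a UMI of up to 0.642% by the limit of 3 counts, and in 1 of 772 cells of KO dpi2. The macrophage shares of *Ccl5*, 0.315% and 0.571% at dpi2, had overlapping intervals, and the genotype difference in level at dpi2 was not detectable as a share at this depth. At dpi4 they were 2.20% and 1.64%, which ran against the order of the levels, so that no order is read from them.

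**Figure D5:**
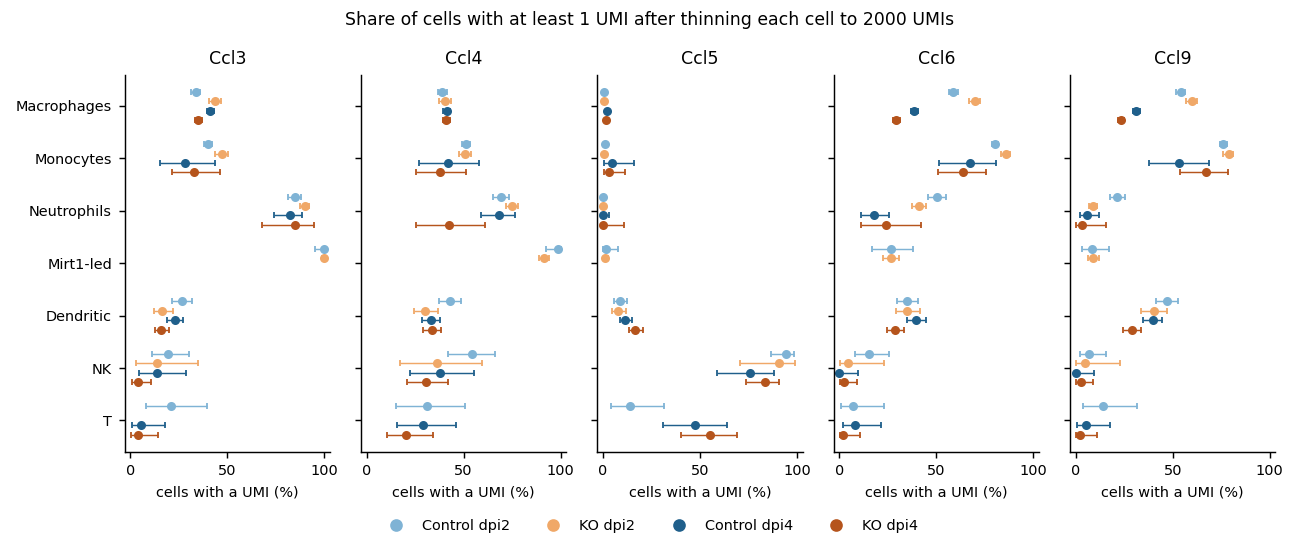
Share of cells with at least 1 UMI of each chemokine after every cell was thinned to 2000 UMIs, with exact 95% binomial intervals, for classes with at least 20 thinned cells in a library. *Ccl3* was found in 82.4% to 90.0% of neutrophils and 33.6% to 43.5% of macrophages, and *Ccl5* in 75.7% to 94.4% of NK cells.

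*Ccl4* was found more often in macrophages with *Ccl3* than in those without it, and *Ccl9* more often in those with *Ccl6*. After thinning, *Ccl4* was present in 56.0%, 55.4%, 63.1% and 66.1% of macrophages with *Ccl3* and in 30.4%, 28.7%, 25.9% and 27.7% of those without it. For *Ccl9* in macrophages with and without *Ccl6*, the shares were 69.3% and 32.6% in Control dpi2, 69.9% and 36.2% in KO dpi2, 42.3% and 24.4% in Control dpi4, and 37.6% and 17.5% in KO dpi4. Across the pairs, *Ccl6* was present in 55.9%, 73.5%, 40.0% and 29.8% of macrophages with *Ccl3* and in 60.3%, 66.8%, 37.6% and 28.9% of those without it. In neutrophils these shares were 52.1% and 41.4% in Control dpi2, 43.2% and 20.8% in KO dpi2, and 18.4% and 14.3% in Control dpi4. These shares describe cells of 1 library each.

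Over 22 class-by-library sums of at least 50 cells, the chemokines formed the same 2 pairs, with *Ccl5* apart. The Pearson correlation of log2(CPM + 1) was 0.95 for *Ccl3* with *Ccl4*, 0.902 for *Ccl6* with *Ccl9*, and -0.68 for *Ccl3* with *Ccl5*. Of 10638 genes, the most like *Ccl3* was *Ccrl2* (0.954), which encodes a chemokine-binding receptor that does not signal, followed by *Ccl4* and *Hcar2*. The genes most like *Ccl4* were *Ssu72* (0.955), *Ccl3* and *Hcar2*. *Ccl5* was most like *Sigirr* (0.968), *Serpinb6b* (0.951) and *P2ry10* (0.933). *Gda* (0.944), *Ccl9* and *Chil3* (0.891) came first for *Ccl6*, and *Capza2* (0.909), *Ccl6* and *Pitpna* (0.894) for *Ccl9*. The sums share libraries and depth, so these values are descriptions.

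The receptors that these chemokines bind were found on several of the same classes. *Ccr1*, whose product binds several of them, was highest in neutrophils, at 1290, 1124, 910 and 554 CPM in Control dpi2, KO dpi2, Control dpi4 and KO dpi4, ahead of monocytes (414, 537, 268 and 174 CPM) and macrophages (102, 168, 47.3 and 47.8 CPM). Of 14 receptor genes, 5 had enough UMIs in macrophages at dpi2 and 0 were called, against 4.32% of all genes, and 6 did at dpi4, where *Ccr3* was higher in KO (8.69 against 1.14 CPM) and 2.33% of all genes were called. In the change from dpi2 to dpi4 in control macrophages, 2 receptors were higher (*Ccr7* and *Ccrl2*) and 1 lower (*Ccr1*), where 15.6% of all genes were called, and in KO 1 was higher (*Ccr3*) and 1 lower (*Ccr1*), where 13.7% were.

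Of 16 other CC chemokine genes, 6 had enough UMIs in macrophages at dpi2 and 1 was called, *Ccl24*, an eosinophil attractant, which rose from 7.89 to 36.8 CPM in KO, where 4.32% of all genes were called. In monocytes at dpi2, where 4.33% were, *Ccl24* was also higher, and *Ccl8* and *Ccl12* were lower in KO, from 67.7 to 9.64 CPM and from 450 to 182 CPM. From dpi2 to dpi4 in control macrophages, 2 of the 7 with enough UMIs were higher and 3 lower, where 15.6% of all genes were called. In KO, 3 of 9 were higher and 4 lower, where 13.7% were. The monocyte attractants *Ccl2* and *Ccl7* were among the lower ones in both genotypes, with *Ccl2* at 2165 and 189 CPM in control and 1544 and 155 CPM in KO.

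Of 12 NF-kB target and feedback genes, a group known to be induced together with *Ccl3* and *Ccl4*, 0 were called in macrophages, monocytes or dendritic cells between genotypes on either day, where 1.34% to 4.33% of all genes were. In neutrophils at dpi4, 2 of the 8 with enough UMIs were lower in KO, *Tnf* (1516 against 646 CPM) and *Nfkb1* (157 against 73.9 CPM), against 6.05% of all genes. In NK cells 1 was lower on each day, *Nfkbiz* at dpi2 and *Rel* at dpi4, against 5.62% and 3.59%. Their median log2 ratio in macrophages at dpi2 was 0.59 against -0.02 over all genes, and at dpi4 it was -0.16 against 0.01. Interferon-induced genes moved otherwise, with 10 of 12 lower in KO macrophages at dpi2, 11 of 12 in monocytes, 10 of 12 in dendritic cells and 10 of the 11 with enough UMIs in neutrophils, where 4.32%, 4.33%, 2.82% and 9.24% of all genes were called. At dpi4 0 of 12 were called in macrophages or dendritic cells, where 2.33% and 1.34% of all genes were. Many of these were named in the study on the same libraries. Among 14 immediate early and heat shock genes, which cell isolation at body temperature can induce, 2 were called higher in KO macrophages at dpi2, against 4.32% of all genes (*Junb*, from 670 to 1461 CPM, and *Nr4a1*, from 149 to 352 CPM), in the same library and class as the higher *Ccl3*. In the same library *Hspa1a* and *Hspa1b* were lower in KO monocytes (30.3 against 117 CPM and 17.2 against 72.4 CPM) and in KO dendritic cells (35.7 against 180 CPM and 13.4 against 159 CPM), and *Hspa1b* was lower in KO neutrophils. At dpi4 the direction was the other one, with *Hspa1a* and *Hspa1b* higher in KO dendritic cells, *Hspa1b* in KO macrophages and *Hspa1a* in KO monocytes. The part of isolation in these levels was not tested.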

How the data were processed

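Each of the 4 groups was 1 library. The deposited values are UMI counts per gene and cell barcode, which the authors made with Cell Ranger 6.1.2 on the mm10 mouse genome per the submitters' processing notes. They are not normalized. The study's own cell filters and annotation were not used here. Barcodes with under 500 genes or at least 10% mitochondrial UMIs were dropped, as were the highest-ranked Scrublet doublet scores at a rate of 0.8% per 1000 cells. Cells were scaled to 10000 UMIs and clustered with scanpy 1.11.5 and leidenalg 0.10.2 (2000 variable genes, 30 components, 15 neighbours, resolution 1, or 0.6 for sub-clusters), and clusters were named from fixed markers. Counts were then summed per class and library. Of 25 clusters, 3 stayed unnamed: the *Mirt1*-led one for a median depth under 1/3 of its library's with no marker of its best class among its 10 leading genes, and 2 whose best class was not a leukocyte although *Ptprc* was found in over 50% of cells. Intervals are exact (scipy 1.17.1) and assume independent molecules. Factors by TMM came from edgeR 4.0.16 in R 4.3.3, used for scaling only. Interval coverage and the size rule were tested on simulated Poisson counts. These share the assumption of independent molecules, so they do not test the effect of uneven counts between cells. The genes named were the 5 chemokines, the 3 genes most like each (genes of at least 500 UMIs) and members of the receptor, chemokine, NF-kB, interferon and immediate early lists. These genes, lists and markers were chosen with earlier results of these data known. Alternatives changed the cell classes, filters, doublets, scaling, weighting of cells and the size rule. Some genes and 1 sub-cluster are not reported here.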

Additional observations from a re-analysis of the deposited data

Results flagged for a closer look

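In all, 5 chemokine and class pairs had KO over control ratios that lay on opposite sides of 1 at the 2 days, each with an interval that left out 1, and a log2 ratio of at least 0.5 in size at one of the days. *Ccl3* in monocytes and neutrophils, *Ccl4* and *Ccl9* in macrophages and *Ccl5* in T cells also lay on opposite sides of 1, below that size. With 1 library per group the difference between days was not tested in any of them. In macrophages the log2 ratio of *Ccl3* at dpi2 was 1.13 above that at dpi4, and that of *Ccl6* was 0.93 above it. In dendritic cells the log2 ratio of *Ccl6* was likewise 1.27 above that at dpi4. *Ccl4* and *Ccl5* went the other way in dendritic cells, with differences of -1.07 and -1.56, but with each library clustered by itself the log2 ratio of *Ccl4* at dpi4 was -0.046, on the same side as at dpi2. The class was held by different clusters at the 2 days in macrophages, and 1 cell held 24.1% of the *Ccl5* UMIs of KO dpi4 dendritic cells. Of their *Ccl4* UMIs, 1 cell held 17.9%. Without the highest cell of each library, *Ccl4* in dendritic cells was 526 CPM in Control dpi4 and 548 CPM in KO dpi4.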

How the results depend on the processing

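No paired analysis was possible because each group held 1 library. With 1 library and no replicates, depth limits what counting error can show, and the spread between animals is unknown. The number of chemokines past the size rule did not move in macrophages between genotypes at dpi4. Between days in macrophages it was 3 in each genotype and went to 4 in control at a 1.5-fold limit. In macrophages at dpi2 it went from 1 to 0 with a marker score per cell or doublets kept, and to 2 at a 1.5-fold limit. In monocytes it went from 0 at dpi2 to 1 with each library clustered by itself, a marker score or a mean over cells, and to 2 at 1.5-fold, and from 1 at dpi4 to 2 with own clustering or 1.5-fold and 0 with the score. In neutrophils it went from 1 at dpi2 to 0 with the score or doublets kept and 2 at 1.5-fold, and from 0 at dpi4 to 1 with the score, the mean over cells or 1.5-fold. In dendritic cells it went from 0 at dpi2 to 4 with own clustering and 2 at 1.5-fold, and from 1 at dpi4 to 3 with own clustering and 0 with the score or doublets kept. In NK cells it went from 1 at dpi2 to 2 with own clustering or the score and 3 at a minimum of 200 genes, and from 2 at dpi4 to 0 with own clustering or the mean, 5 with the score and 1 at a minimum of 200 UMIs. In T cells it went from 2 at dpi2 to 4 with doublets kept, 1 with the mean and 0 at 200 UMIs, and from 1 at dpi4 to 0 at 200 genes or 200 UMIs and 4 with doublets kept. Called log2 ratios that changed sign were, with the marker score, *Ccl5* in monocytes at dpi4 (0.79), *Ccl3* and *Ccl4* in T cells at dpi2 (2.04 and 1.55) and *Ccl6* in T cells at dpi4 (0.00515), and with doublets kept *Ccl4* in NK cells at dpi2 (0.75). Of 487 alternative values, 36 changed sign, 5 of them called. Counting the *Mirt1*-led cluster as neutrophils or the *Acta1*-led one as macrophages, both chosen after seeing the data, moved no count of calls. With the *Mirt1*-led cluster as neutrophils, however, the log2 ratio of *Ccl4* in neutrophils at dpi2 changed sign, a move of 1.19-fold. The cause of these moves was not tested.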
